A study of Mus musculus with 11 samples.

Results

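The broad day 2 (D2) domains are stretches of mouse autosome of 50 kb or more that hold at least 1 unbroken peak of that length of Xist RNA association in epiblast-like cells (EpiLCs). The peaks were chosen by length alone, as those whose end minus start was at least 50 kb in either of the 2 D2 lists. Peaks that overlap an already singled-out window of chromosome 6 (113680000 to 115560562, build mm9) were left out. The rule took 188 of 8227 peaks from D2 replicate 1 and 114 of 7544 peaks from D2 replicate 2, so 302 of 15771 peaks in all. Overlapping members of the 2 lists were joined, which gave 194 domains over 23.9 Mb. Of these, 17 hold several long peaks of 1 list. Length, position and enrichment at D2 belong to that choice and are given as a description. So does much of the D2 coverage of the joined domains, which is therefore no independent baseline for their D4 shares.

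The series mapped Xist by RNA antisense purification (RAP-seq), in which biotinylated probes against the RNA capture the crosslinked chromatin it lies on and the DNA is sequenced. Xist was pulled down in female EpiLCs at day 4 (D4, n = 2) and at D2 (n = 2), and in mouse embryonic fibroblasts (MEFs) with 1 female and 1 male library. EpiLCs were made from embryonic stem cells that had been held without feeders in LIF with the inhibitors CHIR99021 and PD0325901, and were then moved to Activin A and bFGF. MEFs grew in serum without feeders, and no group received a further agent. The labels name no strain, genotype or age. They leave unsaid if the replicates are separate cultures, so the spread between them may be technical. Per the labels, replicate 1 of both days re-analyses earlier data, while replicate 2 carries no such remark. Differences between replicates in borders or shares therefore cannot be told apart from a difference in the source of the data, and each source holds both days. MEF values come from 1 library per sex and have no replicate check. The lists hold no read counts, so depth is unknown, and they hold peaks of the 19 autosomes only.

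Xist is the noncoding RNA that is transcribed from the X chromosome to be silenced and coats it in cis. It brings in SPEN and other silencing proteins and leads to Polycomb marks on the chromatin it covers. On the X it is known to reach first those regions that lie near its own gene in space and to spread from there over long stretches. Female EpiLCs pass through the onset of X inactivation, female MEFs keep an inactive X, and male cells with a single X normally lack Xist. Male MEFs therefore measure what the pulldown takes up in fibroblasts without Xist. A male EpiLC pulldown was not analysed here, and that background in EpiLCs is not known.

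No gene content was assigned to the domains. The annotation at hand, RefSeq on GRCm38.p6, is of another build than the mm9 lists, and coordinates were not carried over. Which genes lie in them was therefore not analysed here, and no sequence is shown.

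Broad domains were few but made up a large part of what was called at D2. They were 2.29% of the peaks and 29.5% of the called length in D2 replicate 1, and 1.51% of the peaks and 20.6% of the length in replicate 2. Median length was 80.2 kb in replicate 1 and 74.7 kb in replicate 2, and the longest single peaks ran over 708 and 400.3 kb. Members of at least 100 kb numbered 72 and 39, and members of at least 200 kb numbered 23 and 8. Enrichment was only slightly higher than in shorter peaks. The authors' fold enrichment over the peak caller's background had a median of 2.70 in members and 2.61 in shorter peaks of replicate 1, and of 2.92 and 2.79 in replicate 2. The highest value was 4.07 in members and 5.54 in shorter peaks of replicate 1, and 4.33 and 6.01 in replicate 2.

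The 50 kb limit cuts through a continuous range. In D2 replicate 1 the members just inside it were 50.19, 50.35 and 50.67 kb long, and the peaks just outside were 49.98, 49.53 and 49.26 kb long. In replicate 2 the members just inside were 50.37, 50.78 and 50.78 kb long, and those just outside were 49.71, 49.42 and 49.01 kb long. The fold enrichment of these 12 peaks lay between 2.53 and 3.00.

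Every broad domain of 1 D2 replicate was touched by the other. Of all D2 peaks outside the chromosome 6 window, 45.3% in replicate 1 and 59.3% in replicate 2 overlapped the other list by at least 1 bp. Among members these counts were 188 of 188 and 114 of 114, which longer peaks reach more easily. The share of length is less bound to peak size. Of the length under replicate 1 members, 79.5% was also called in replicate 2, and of the length under replicate 2 members, 96.8% was also called in replicate 1. Shares of single members ran from 15.9% to 100% (median 77.8%) for replicate 1 members and from 42.1% to 100% (median 100%) for replicate 2 members. Shorter peaks agreed less by this measure, at 51.9% and 84.1% of the length for peaks of 20 to under 50 kb and at 17.5% and 33.4% for peaks under 5 kb, in replicates 1 and 2.

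What was 1 unbroken peak in replicate 1 was usually several in replicate 2. Replicate 2 had a single peak in 16 of the 188 replicate 1 members, 2 or 3 in 81 and at least 4, up to 12, in 91. The largest of these pieces had a median length of 44.1 kb. In the other direction 82 of 114 replicate 2 members held a single replicate 1 peak, with a median length of 137 kb. After joining, 78 domains contained a peak of 50 kb or more from both lists, 106 from replicate 1 only and 10 from replicate 2 only. A peak list breaks wherever neighbouring called stretches lie too far apart, and the shortest gap in any of the 6 lists was 4001 bp.

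Borders of single peaks were less reproducible than the ground they covered. For replicate 1 members, the start or end of the replicate 2 peak of largest overlap lay a median of 19.5 kb away, and 20.5% of the 376 borders were within 5 kb. The replicate 2 border lay inside the replicate 1 member in 314 of the 376 cases. When the outermost borders of all replicate 2 peaks in a member were taken, the median distance fell to 3.72 kb, and 58.0% of borders were within 5 kb. For replicate 2 members the median distance was 19.5 kb by the largest overlap and 18.7 kb by the outermost borders, since replicate 1 peaks mostly ran past them (169 of 228 borders).

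For 81 replicate 1 members the best replicate 2 match was itself at least 50 kb long, and 5 of them matched within 5 kb at both ends. The closest match was on chromosome 9, 66488063 to 66634288 in replicate 1 and 66488129 to 66633428 in replicate 2, with ends 0.066 and 0.86 kb apart. The next were on chromosome 1, 135899611 to 136019630 (0.027 and 1.633 kb apart), and chromosome 4, 153170784 to 153249010 (0.827 and 0.845 kb). The farthest were on chromosome 7, 151728970 to 152436944 (387 and 44.4 kb), chromosome 5, 112832784 to 113242125 (316 and 83.1 kb), and chromosome 15, 78066184 to 78551477 (79.6 and 303 kb). The last 3 are among the longest members, and replicate 2 split them into 9, 12 and 11 peaks.

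**Figure D1:**
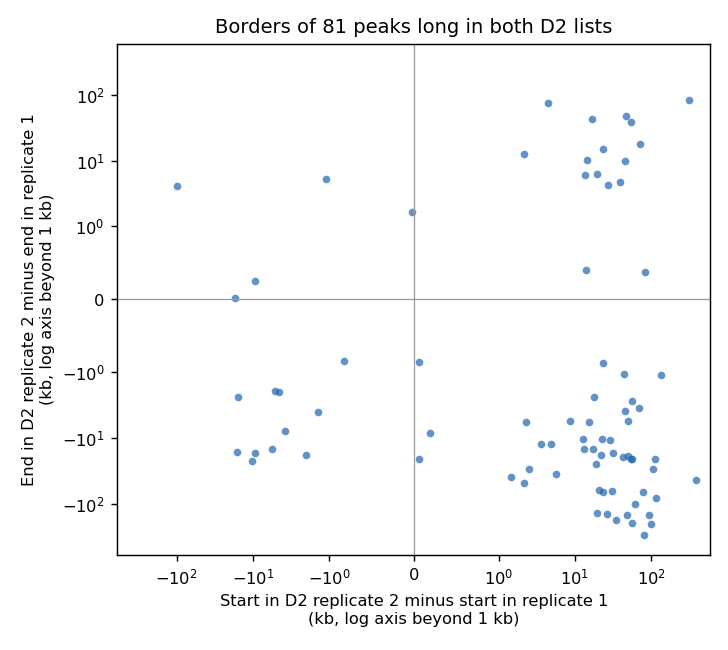
Distance between borders for the 81 D2 replicate 1 members whose best match in replicate 2 is also at least 50 kb long. Each point is 1 pair, with the start difference (replicate 2 minus replicate 1, kb) on the horizontal axis and the end difference on the vertical axis, both on a log scale beyond 1 kb. Most points lie at a later start and an earlier end, so the replicate 2 peak lies inside, and 5 pairs are within 5 kb at both ends.

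Little of this ground was still called at D4. Of the 23.9 Mb, 12.1% was called in D4 replicate 1 and 6.95% in D4 replicate 2, a mean of 9.53% ± 3.65 (SD, n = 2). With lists of the same replicate number only, D4 replicate 1 called 12.2% of the length of D2 replicate 1 members, and D4 replicate 2 called 10.8% of that of D2 replicate 2 members. In both D4 lists together 3.87% was called, and 15.2% in at least 1. In the median domain the called share was 1.82% in D4 replicate 1 and 0% in D4 replicate 2, and no domain reached 80% in a single D4 list. The highest shares were 72.0% and 57.2%. The D4 lists held 1553 and 1148 peaks in all, against 8227 and 7544 in the D2 lists. Depth is unknown, so a lower called share at D4 is not shown to be less Xist there. Fewer cells with Xist on these regions, less Xist per cell and weaker calling cannot be told apart in these bulk pulldowns.

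With both D4 lists joined, 87 of 194 domains (44.8%) were fragmented, which here means at least 2 D4 pieces that together cover under 80%. A further 36 (18.6%) had shrunk to 1 piece under 80%, 69 (35.6%) were lost, with no D4 base, and 2 (1.03%) were largely kept, at 80% or more. Fragmented domains held a median of 4 pieces, with up to 32, over a median of 18.2% of their length. The shrunk ones kept a median of 2.69% and at most 25.9%. Lost domains had a median length of 71.9 kb and fragmented ones of 110 kb. Without D4 replicate 1 the number lost was 105, and without D4 replicate 2 it was 82. Since the lists were joined, 1 piece from each list at different places also counts as fragmented. In D4 replicate 1 alone 73 domains were fragmented and 39 shrunk, and in D4 replicate 2 alone 58 and 31. In these single lists no domain was largely kept. Whether fragmented or shrunk domains were more common depended on the limits. There were 12 fragmented and 23 shrunk when a D4 piece had to cover 10% of the domain, and 14 and 24 with a −log10 q of at least 2. Counting only bases called in both D4 lists, 26 were fragmented and 22 shrunk.

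The D4 pieces were short. D4 replicate 1 had 412 pieces in the domains with a median of 3.52 kb, of which 77 were at least 10 kb long and 5 at least 50 kb. D4 replicate 2 had 308 with a median of 3.16 kb, of which 39 were at least 10 kb long and 1 at least 50 kb. Their peaks had a median fold enrichment of 2.78 in replicate 1 and 2.85 in replicate 2, against 2.83 and 2.85 for the remaining D4 peaks outside the window. Most D4 peaks that touched a domain stayed within it, as 18 of 412 and 8 of 308 reached past a border.

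The D4 lists drew much of their length from these domains. Outside the chromosome 6 window, 43.6% of the called length of D4 replicate 1 and 39.996% of that of D4 replicate 2 lay inside them. Of all D4 peaks there, 27.2% in replicate 1 (412 of 1517) and 27.7% in replicate 2 (308 of 1111) touched a domain, and 394 and 300 lay entirely inside. All 6 D4 peaks of 50 kb or more outside the window, 5 in replicate 1 and 1 in replicate 2, also lay entirely inside. Those of replicate 1 were on chromosome 4, 153832838 to 153996351 (164 kb) and 154115967 to 154176962 (61.0 kb), on chromosome 7, 151787546 to 151882847 (95.3 kb) and 151916583 to 151977958 (61.4 kb), and on chromosome 15, 101535139 to 101594220 (59.1 kb). The replicate 2 peak was on chromosome 7, 151772601 to 151867365 (94.8 kb), and shared most of its length with the first chromosome 7 peak of replicate 1.

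**Figure D2:**
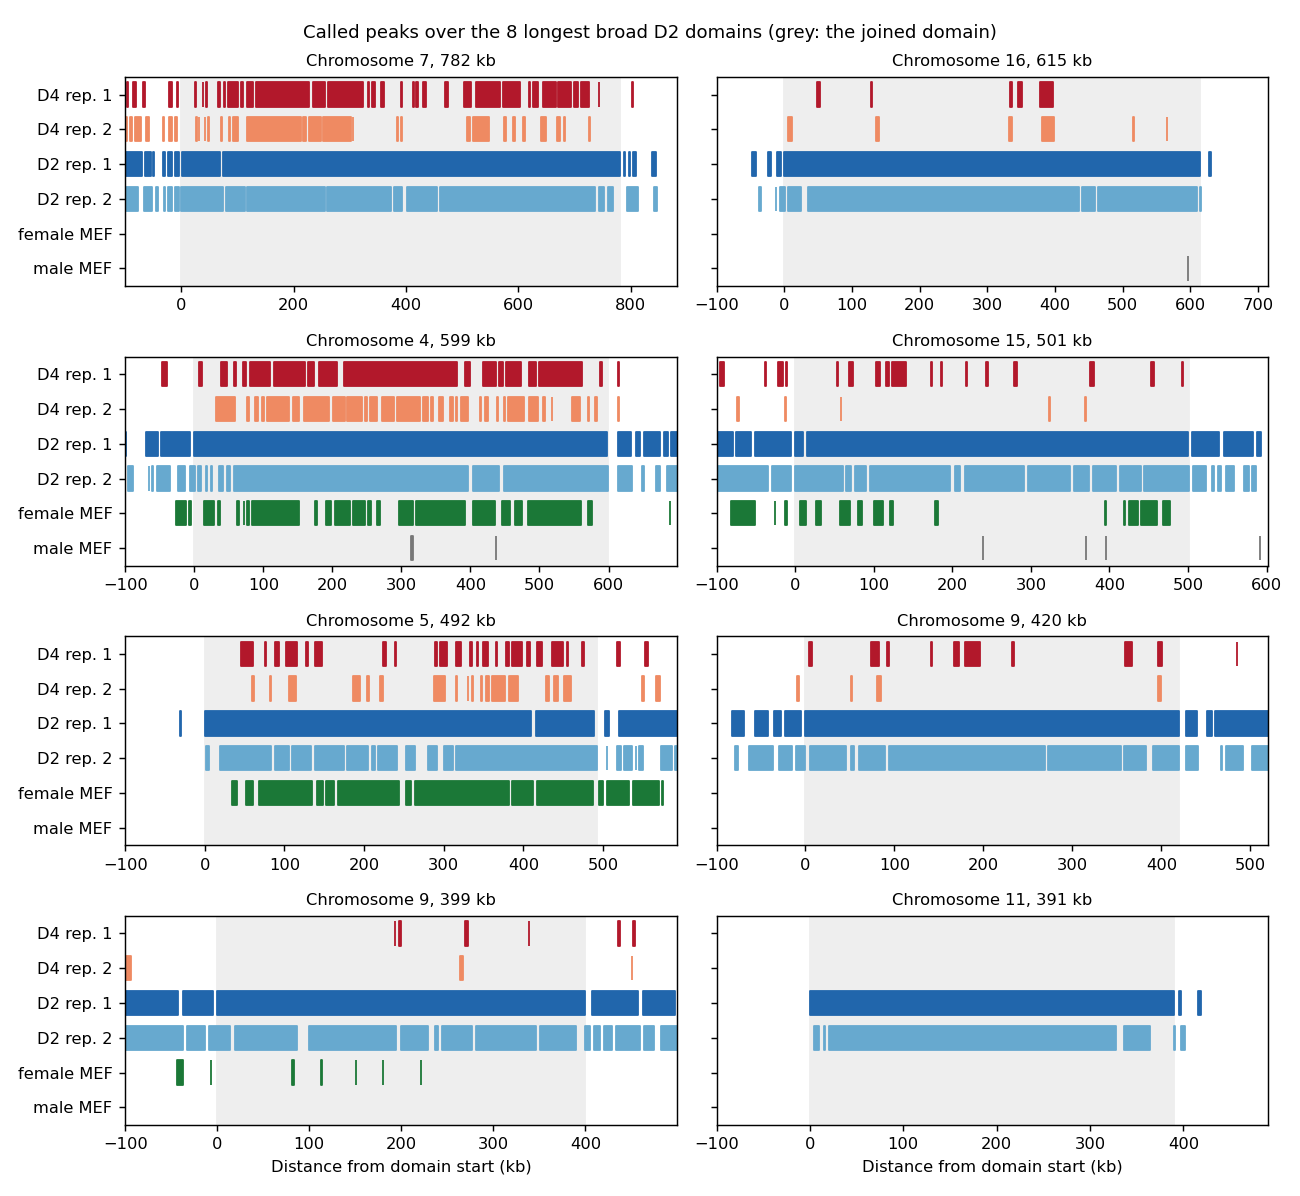
Called peaks in the 6 lists over the 8 longest domains, with 100 kb on either side. The horizontal axis is the distance from the start of the joined domain (grey, kb), and each coloured bar is a called peak. D2 replicate 1 fills the domains and D2 replicate 2 fills them with breaks, while D4 replicates 1 and 2 cover 70.0% and 52.1% of the chromosome 4 domain and none of the chromosome 11 domain.

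The 10 longest domains had very different outcomes at D4. On chromosome 7, 151655245 to 152436944 (782 kb), D4 replicates 1 and 2 called 53.1% and 31.6% of the length, against 99.3% and 92.3% in D2 replicates 1 and 2. Neither MEF list had a peak there. On chromosome 4, 153616054 to 154214577 (599 kb), the shares were 70.0% and 52.1% at D4 and 99.8% and 91.4% at D2, with 62.6% in female and 0.570% in male MEFs. These 2 domains lie near the ends of their chromosomes, 0.0654 and 0.597 Mb before the last peak of any list. Together they held 28.8% and 33.6% of all bases called inside the domains in D4 replicates 1 and 2.

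Most of the other long domains kept little. The second longest, on chromosome 16, 29673351 to 30287914 (615 kb), had 5.59% and 5.45% at D4, against 100% and 95.3% at D2. Its D4 peaks reached a fold enrichment of 3.54 in replicate 1, the highest of that list's peaks in any domain, and of 3.49 in replicate 2, where the highest was 3.54. On chromosome 15, 78051030 to 78552519 (501 kb), the D4 shares were 10.6% and 0.467%, and on chromosome 5, 112832784 to 113325256 (492 kb), they were 25.002% and 19.3%. The chromosome 9 domains at 60819928 to 61239579 (420 kb) and 43213881 to 43613017 (399 kb) had 12.5% and 2.264%, and 1.68% and 0.815%. The chromosome 4 domain at 138018594 to 138404687 (386 kb) had 1.82% and 0%, and the chromosome 7 domain at 149483429 to 149847031 (364 kb) had 0.119% and 2.44%. D2 replicates 1 and 2, from which the domains were chosen, called at least 97.9% and 83.0% of each of these 10 domains, with 83.0% in the chromosome 5 domain.

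The longest domain with no D4 base in either list was on chromosome 11, 96220942 to 96611454 (391 kb), which D2 replicates 1 and 2 covered to 100% and 87.8% and no MEF list touched. The next were on chromosome 12, 80906014 to 81227500 (321 kb), chromosome 7, 105471857 to 105729352 (257 kb), chromosome 11, 94684017 to 94856592 (173 kb), and chromosome 18, 38970007 to 39127243 (157 kb). Further ones were on chromosome 2, 127664637 to 127820094 (155 kb), chromosome 15, 102591199 to 102743813 (153 kb), and chromosome 11, 78889875 to 79039462 (150 kb). D2 coverage in replicate 2 was between 46.8% and 92.9% for these 8. Their D2 fold enrichments lay between 2.64 and 3.06, which is within the range of the members as a whole.

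High D4 shares were also found in some of the shortest domains. The highest mean share was on chromosome 7, 151480939 to 151534738 (53.8 kb), with 71.9% and 57.2% in D4 replicates 1 and 2, against 100% and 76.6% in D2 replicates 1 and 2. It lies just before the 782 kb domain. The next after the 599 kb domain was on chromosome 4, 150907804 to 150974795 (66.99 kb), where D4 replicates differed widely (72.0% and 21.9%). It was followed by chromosome 4, 139708267 to 139782661 (52.2% and 38.02%), and chromosome 8, 123486143 to 123562763 (61.6% and 26.8%). The remaining ones of the first 8 besides the 782 kb domain were on chromosome 15, 101518449 to 101848171 (48.3% and 30.9%), and chromosome 4, 151059926 to 151264368 (42.4% and 34.6%).

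The D4 libraries ranked the domains similarly. D4 replicate 1 touched 112 domains (57.7%) and D4 replicate 2 touched 89 (45.9%), of which 76 were shared, and 125 were touched in either list. A base called in both D4 lists was found in 48 domains. Among all joined D2 regions outside the window, 6.67% were touched in D4 replicate 1 and 4.47% in D4 replicate 2 by at least 1 bp, or 8.74% in either list, but these are mostly short and offer less room. Counted by single D2 peaks, D4 replicate 1 touched 108 of 188 members of D2 replicate 1, where 7.87% of all peaks were touched, and 70 of 114 members of D2 replicate 2, where 9.04% were. D4 replicate 2 touched 86 members of D2 replicate 1, where 5.38% of all peaks were touched, and 62 of D2 replicate 2, where 5.75% were. Across the 194 domains the D4 shares of the replicates had a Pearson correlation of 0.811 and a Spearman correlation of 0.696, which describes these libraries, as domains are not replicates and both lists meet the same D2 regions. These correlations include the 69 domains tied at 0% in both D4 lists. D2 length and D2 enrichment were weakly related to the mean D4 share, with Spearman correlations of 0.180 for length and 0.262 and 0.293 for fold enrichment in D2 replicates 1 and 2 across domains.

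**Figure D3:**
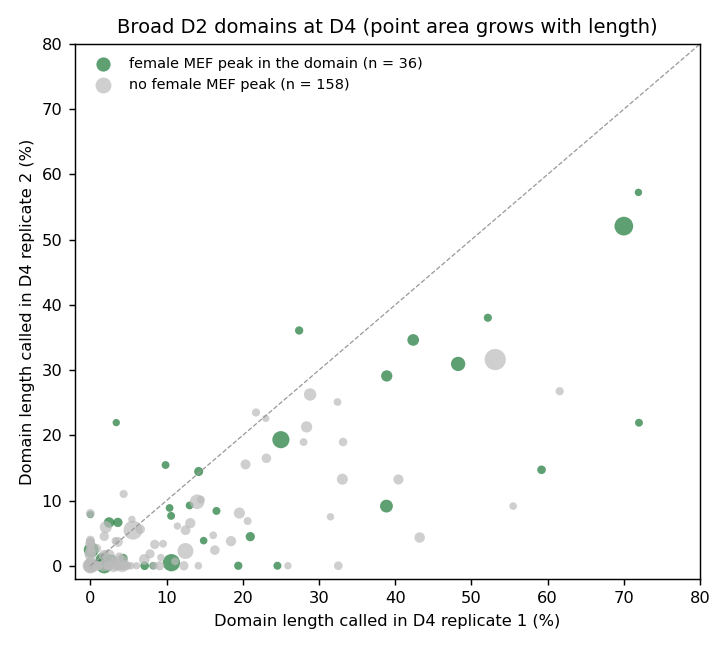
Share of each of the 194 domains called in D4 replicate 1 (horizontal, %) and D4 replicate 2 (vertical, %). Each point is a domain, its area grows with length, green points hold a female MEF peak, and the dashed line marks equal shares. Most points lie near 0, with 97 domains higher in replicate 1, 28 higher in replicate 2 and 69 at 0% in both.

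Broad domains held more D4 length than shorter D2 regions did. The 10690 joined D2 regions without a broad peak covered 68.1 Mb. D4 replicate 1 called 12.1% of the length of the broad domains, against 2.61% of these other regions, and D4 replicate 2 called 6.95%, against 1.59%. The mean difference was 7.43 percentage points ± 2.93 (SD, n = 2) and was positive in 2 of 2 libraries, a 4.54-fold ratio of the means. The exact paired permutation test over the 2 D4 libraries gave a two-sided p of 0.5, the smallest that 2 libraries allow, so the difference could not pass a threshold. The same order held along the range of D2 peak length. Peaks of 50 kb or more in D2 replicate 1 had 12.2% of their length called in D4 replicate 1, against 4.24% for peaks of 20 to under 50 kb, 2.81% for peaks of 5 to under 20 kb and 1.95% for peaks under 5 kb. For D2 replicate 2 and D4 replicate 2 these shares were 10.8%, against 4.53%, 2.03% and 1.52%. Long peaks also had a higher median −log10 q at D2 (1.86 against 1.54 in the shortest class of replicate 1). Shorter peaks were also repeated less within D2. From the longest to the shortest class of D2 replicate 1, D2 replicate 2 called 79.5%, 51.9%, 30.4% and 17.5% of the length. The part of either in the D4 shares was not tested, so the order is not shown to be one of length.

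**Figure D4:**
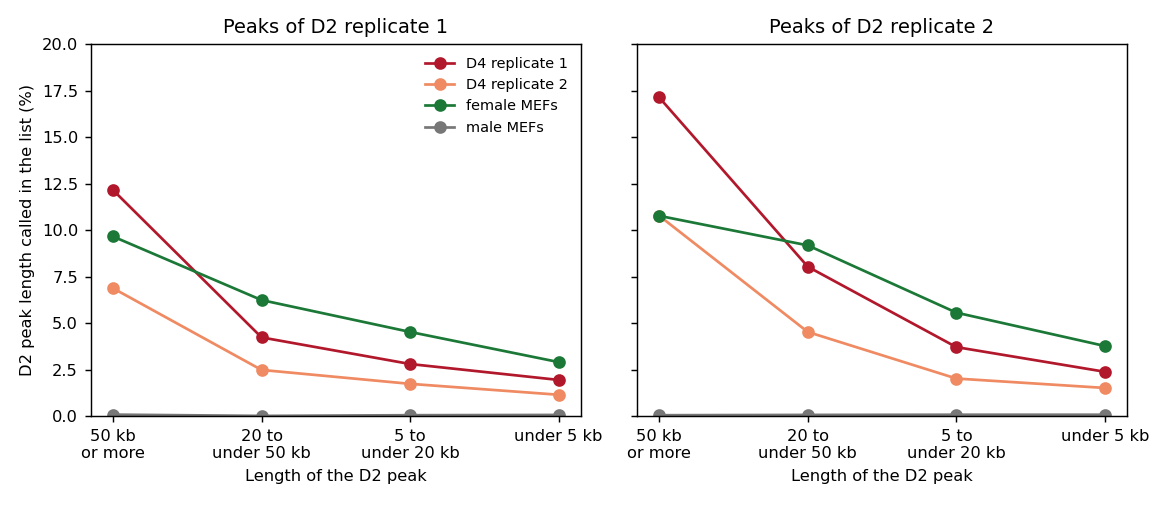
Share of D2 peak length (%) that was called in each D4 and MEF list, by length class of the D2 peak, for D2 replicate 1 (left) and D2 replicate 2 (right). Points are values of 1 list. For D4 replicates 1 and 2 and for female MEFs the broad class is highest in each panel, and male MEFs reach at most 0.0898%.

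Ordered by length, the 65 longest domains, from 111 to 782 kb, had 15.0% and 8.95% of their length called in D4 replicates 1 and 2. The 64 in the middle had 7.13% and 3.59%, and the 65 shortest, up to 69.0 kb, had 8.43% and 4.17%. The number lost was 14 of the 65 longest, 24 of the 64 in the middle and 31 of the 65 shortest. Domains long in both D2 lists had 15.2% and 9.37% called in D4 replicates 1 and 2, against 7.09% and 2.87% for those long in D2 replicate 1 only. This order was the same in both D4 libraries, and no test was made of it, since domains are not replicates. The 782 and 599 kb domains are among the 65 longest and among those long in both D2 lists. Together they held 28.8% and 33.6% of the bases called inside all domains in D4 replicates 1 and 2. The order was not examined without them.

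The shorter D4 lists invite a comparison with a D2 list of the same size, which was chosen after the data were seen. D4 replicate 1 with its 1553 peaks covered 17.1% of the length of D2 replicate 2 members, against 73.9% for the 1553 strongest peaks of D2 replicate 1. D4 replicate 2 with its 1148 peaks covered 6.88% of the length of D2 replicate 1 members, against 30.8% for the 1148 strongest peaks of D2 replicate 2. This matches only the number of peaks. Strength was ranked by −log10 q, which was higher in long D2 peaks, so the choice favours them. The lowest value was 1.30 in the D4 lists and 1.88 among these D2 peaks. The D4 pieces were also near the limit of the lists, and with a −log10 q of at least 2 required the D4 share was 0.902%, against 34.8% in the other D2 replicate.

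Pooled over the length of all domains, D4 pieces were sparser at the ends than farther in. The 2 domains with most D4 bases held 28.8% and 33.6% of those bases in D4 replicates 1 and 2. The pattern was not examined without them or by single domains. Measured from either border, the outermost 10% of domain length was called to 7.29% in D4 replicate 1 and to 3.60% in D4 replicate 2. Between 20% and 30% of the length from a border the shares were 14.8% and 9.64%, and in the centre, from 40% of the length inwards, they were 11.6% and 5.97%. Just outside, in the first 10 kb beyond a border, D4 coverage was 3.79% and 1.66%, and between 50 and 100 kb away it was 3.05% and 1.85%. D2 replicate 2 also covered less of the outermost 10% (68.2%) than of the centre (85.0%). Female MEFs covered 7.09% of the outermost 10% and 10.3% of the centre. The D4 and MEF lists took no part in setting these borders.

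Domains were found on all 19 autosomes but in unequal numbers. Chromosome 4 held 27 (3.41 Mb), chromosome 9 held 24 (3.42 Mb) and chromosome 11 held 18 (2.49 Mb), while chromosome 3 held 2 and chromosome 18 held 3. Per 100 Mb of the stretch in which a chromosome has peaks, chromosome 9 had 19.8, chromosome 4 had 18.5 and chromosome 11 had 15.6, and chromosome 3 had 1.37. Domains came in groups. The median gap between neighbours was 325 kb, and 142 of the 194 had another within 500 kb. These formed 50 groups, the largest with 7 domains on chromosome 2, 127305032 to 128414957. There were 3 groups of 6. They lay at 111865577 to 113506402 of chromosome 5, at 60819928 to 62540042 of chromosome 9 and at 59805696 to 60761836 of chromosome 10. Some neighbours were only a few kb apart, such as 2 on chromosome 1, of which 1 ended at 135895269 and the next began at 135899584. The shortest gap in any list was 4001 bp. The number of domains and part of their grouping thus depend on where the lists break a stretch.

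Of the chromosomes with most domain length, chromosome 4 had a high D4 share and chromosomes 9 and 11 had low ones. Domains of chromosome 7 had 27.0% and 16.1% of their length called in D4 replicates 1 and 2, those of chromosome 4 had 23.3% and 16.2%, those of chromosome 15 had 21.2% and 8.80%, and those of chromosome 5 had 14.4% and 8.63%. Chromosome 8, with 7 domains, had 22.6% and 8.75%. On chromosome 9 the shares were 7.11% and 3.89%, on chromosome 11 they were 1.92% and 0.949%, and on chromosome 18 they were 0% and 0%. Chromosomes 4, 5, 7 and 15, a set picked after the values were seen, held 37.4% of the domain length and 68.2% and 72.1% of the bases called inside domains in D4 replicates 1 and 2. On chromosomes 11, 12 and 18 the broad domains had a lower share than the other D2 regions of the same chromosome in both D4 libraries. Those other regions had 3.04% and 1.92% on chromosome 11, 1.38% and 1.17% on chromosome 12, and 0.300% and 0.567% on chromosome 18. Of the domains of these chromosomes, 9 of 18, 3 of 4 and 3 of 3 were lost.

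**Figure D5:**
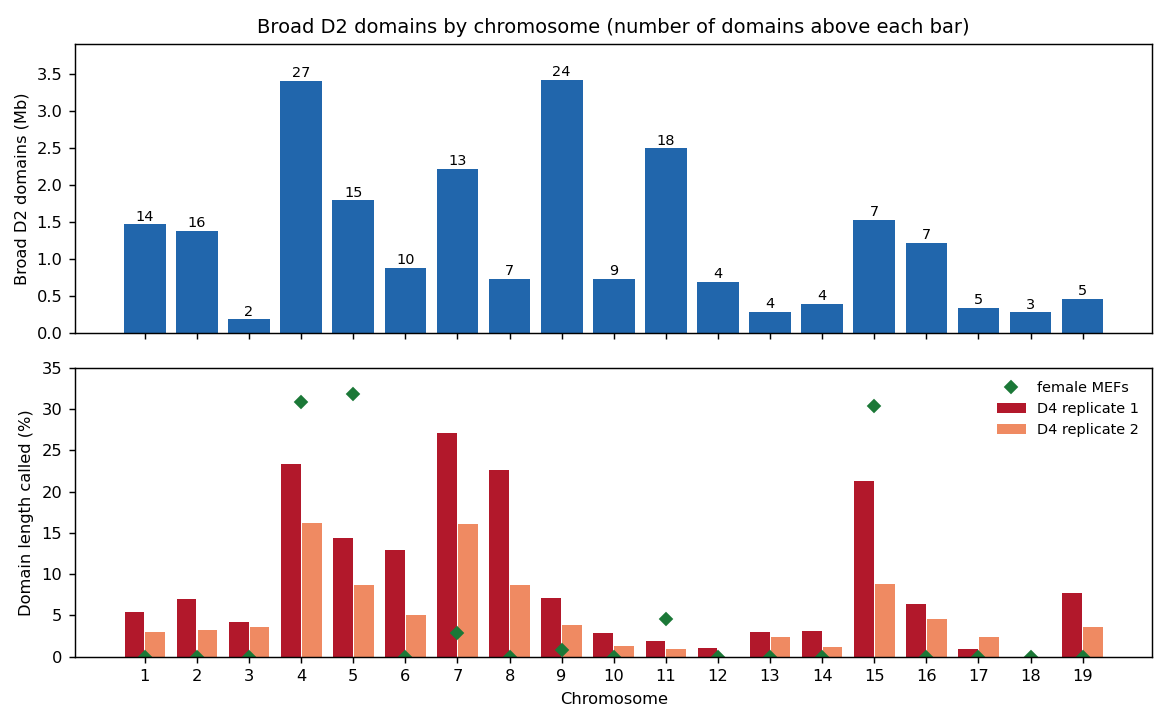
Total length of the broad D2 domains per chromosome (upper panel, Mb, with the number of domains above each bar) and the share of that length called in D4 replicate 1, D4 replicate 2 and female MEFs (lower panel, %). Chromosomes 4, 9 and 11 hold the most domain length, whereas the D4 bars are highest on chromosomes 7, 4, 8 and 15 and the female MEF points on 5, 4 and 15.

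The group on chromosome 2 with 7 domains is an example of near complete loss. D4 replicates 1 and 2 called 0.486% and 0% of its 688 kb, against 100% and 70.7% in D2 replicates 1 and 2. The group of 6 on chromosome 10 had 1.72% and 0.472% at D4, and that on chromosome 9 had 6.22% and 1.06%. The group of 4 at the end of chromosome 4, 153169957 to 154214577, had 54.4% and 43.1%, and that at the end of chromosome 7, 151158093 to 152436944, had 50.5% and 31.2%. Without the 9 domains in the last 3 Mb of chromosomes 4 and 7, as measured from the last peak and chosen after the values were seen, the D4 shares of the remaining 185 were 8.73% and 4.39%.

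In fibroblasts a minority of the domains was called, but some of them almost whole. Female MEFs touched 36 of 194 domains (18.6%), and male MEFs touched 32 (16.5%). Among all joined D2 regions outside the window, 4.92% were touched by female MEFs and 1.16% by male MEFs. By single D2 peaks, female MEFs touched 36 of 188 members of D2 replicate 1 and 25 of 114 of D2 replicate 2, where 5.24% and 6% of all peaks were touched. Male MEFs touched 32 of 188 and 15 of 114, where 1.24% and 1.1% of all peaks were touched. By length the 2 lists were far apart, as female MEFs called 9.58% of the domain length and male MEFs 0.0855%. The other D2 regions had 4.63% in female MEFs and 0.0570% in male MEFs. Male pieces inside domains were 36 in number with a median of 0.230 kb and at most 3.40 kb, and 0 domains had 10% of their length in male MEFs. Outside the window the female list had 1009 peaks and the male list 324, and depth is unknown for both. With 1 library per sex no test was made.

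Female MEFs covered 7 domains to at least 80%. The domains on chromosome 11, 118603144 to 118661603, and chromosome 4, 139708267 to 139782661, were covered to 100%. They were followed by chromosome 4, 150907804 to 150974795 (93.9%), 139527541 to 139586664 (92.1%) and 124835608 to 124891699 (91.8%), by chromosome 15, 77821989 to 77927565 (88.0%), and by the 492 kb domain of chromosome 5 (81.1%). D4 coverage of these 7 ranged widely. The chromosome 4 domains at 139708267 and 150907804 are among the 8 of highest mean D4 share, and the 492 kb domain had 25.002% and 19.3% in D4 replicates 1 and 2. The chromosome 11 domain had 14.9% and 3.85%, the chromosome 4 domain at 139527541 had 8.24% and 0%, and the chromosome 15 domain had 4.30% and 1.12%. The chromosome 4 domain at 124835608 had no D4 base. At D2, replicate 2 covered 24.9% of that domain, 53.4% of the chromosome 11 domain and between 65.9% and 85.8% of the rest of the 7. The female MEF peak over the chromosome 11 domain was 490 kb long, and 11.9% of it lay in broad domains. Of the 44 female MEF peaks of 50 kb or more outside the window, 15 touched a broad D2 domain, against 12.7% (128 of 1009) of all female MEF peaks there, which are mostly shorter. Of the 44, 13 lay inside domains to at least 80% of their length, and 38 were on chromosomes 4, 5 and 15.

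Of the 36 domains touched in female MEFs, 34 were also touched at D4, and 27 in all 5 female lists. A further 91 domains were touched at D4 and not in female MEFs, and 67 in neither, so 125 of 194 were touched at D4. The 2 domains touched in female MEFs and not at D4 were on chromosome 4. Among all 10877 joined D2 regions, 1.7% were touched both in female MEFs and at D4 (185 of the 535 touched in female MEFs), and 0.588% in all 5 female lists. These regions are mostly short and offer less room. Both D2 lists, which are among the 5, touched all 194 domains. Of all D2 peaks, 45.3% in replicate 1 and 59.3% in replicate 2 overlapped the other list. The higher counts among domains therefore follow in part from their length and choice. The Spearman correlation between the mean D4 share and the female MEF share across domains was 0.405. Female MEF peaks in domains were found on chromosomes 4 (13 domains), 7 (6), 5 (5), 15 (5), 9 (4) and 11 (3), and the domains of the remaining 13 autosomes had no female MEF base. By length the female MEF share was 31.8% on chromosome 5, 30.8% on chromosome 4 and 30.4% on chromosome 15, but 2.92% on chromosome 7, where mean D4 coverage was highest (in D4 replicate 2 alone chromosome 4 was slightly higher).

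The male MEF bases were few wherever they fell. The most were in the 599 kb domain of chromosome 4 (3.41 kb, 0.570% of its length), in which female MEFs called 374 kb. The next were on chromosome 4, 125453677 to 125666945 (3.40 kb in male, 149 kb in female MEFs), chromosome 4, 118673011 to 118784356 (3.25 kb in male MEFs), chromosome 12, 80906014 to 81227500 (1.51 kb) and chromosome 6, 113591442 to 113650358 (1.24 kb). The last 3 had no female MEF peak. The chromosome 6 domain lies shortly before the excluded window, and D4 replicates 1 and 2 called 55.5% and 9.15% of it.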

How the data were processed

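The lists are on mm9. The submitters' processing notes name MACS2 2.2.7.1, Bowtie2 2.2.9, Trim Galore 0.4.1, SAMtools 1.9, bedtools 2.26.0 and Picard, without settings. They do not say which input was used for which list. The authors deposited 1 broad-peak list per pulldown, with the start and end of each called peak in bp. The authors' peak calling gave each deposited peak a fold enrichment, which is a linear ratio over the caller's background. The authors' peak calling also gave each deposited peak a −log10 p and a −log10 q, and a score that was not used. The 5 inputs were not analysed here. Depth is unknown, so no counting error can be given.

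From these lists, overlaps of at least 1 bp and covered lengths were computed with Python 3.11.15, pandas 2.3.3 and numpy 2.4.6. The interval code was tested on simulated data, with 20 pairs of lists. Coordinates are mm9, counted from 1. Domains were named by a fixed rule: the 10 longest, the 8 of highest mean D4 share, the 8 longest without a D4 base, the 6 of highest female MEF share, the 5 with most male MEF bases, and the 3 closest and 3 farthest border matches. Members and lists were chosen with earlier results of these data known. Gene lists were drawn up but not used, for want of an mm9 annotation. Groups follow the labels' titles. Replicate 1 of both days re-analyses earlier data per the labels, so the number was taken to pair D2 and D4. The paired test used scipy 1.17.1. Alternatives varied the length limit, the −log10 q limit, the overlap, the filling of gaps, the window and the replicates.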

Additional observations from a re-analysis of the deposited data

How the results depend on the processing

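The D4 share of domain length, 9.53% in the mean, was 0.902% with D4 peaks of a −log10 q of at least 2 and 14.2% with the chromosome 6 window kept, and between 6.95% and 13.9% when 1 replicate of D2 or D4 was left out. With only lists of the same replicate number compared (replicate block) it was 11.5%, within 1 SD (3.65) of the mean over the D4 libraries. The other alternatives for it were also within 1 SD of that mean. They were 40 and 100 kb, filled gaps, and the chromosome ends left out, which was chosen after seeing the data. Filled gaps gave 12.6% and the ends left out gave 6.56%, both outside the range from 6.95% to 12.1% of the single D4 libraries. The counts at D4 depended on what was asked of a D4 peak. When a D4 piece had to cover 10% of the domain, 159 domains were lost, 12 fragmented, 23 shrunk and 0 largely kept. With a −log10 q of at least 2, 156 were lost, 14 fragmented, 24 shrunk and 0 largely kept. With domains of 100 kb or more (73 in all), 15 were lost, 46 fragmented, 11 shrunk and 1 largely kept, and with 40 kb (267 in all) 57 were shrunk. Filling gaps up to 10 kb gave 7 largely kept. Without 1 D4 replicate, 82 to 105 were lost, 58 to 73 fragmented, 31 to 39 shrunk and 0 largely kept. The share called in the other D2 replicate, 88.1% in the mean of both directions, was 34.8% with a −log10 q of at least 2 and 52.4% with that list cut by −log10 q to the number of peaks of the D4 list, also chosen after seeing the data. The median border distance, 19.5 kb, was 11.2 kb by outermost borders, 17.2 kb for domains of 40 kb or more and 27.2 kb for 100 kb or more. The female MEF share, 9.58%, was 0.322% with a −log10 q of at least 2, and without 1 D2 replicate it was 9.66% to 10.8%. The male MEF share stayed between 0.0760% and 0.109%. Fewer peaks or domains enter under the stricter limits by construction, and other causes were not tested. Depth is unknown, so an uncalled stretch is not shown to lack Xist.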
